A study of Homo sapiens with 2 samples.

Results

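The proteins of the BCL2 family keep the outer membrane of the mitochondria closed or open it during apoptosis, and the transcripts of 10 of their genes were read from expression arrays of Y79 retinoblastoma cells. The 10 genes were the anti-apoptotic BCL2, BCL2L1 and MCL1, the effectors BAX and BAK1, and the BH3-only genes BID, BAD, BBC3, PMAIP1 and BCL2L11. They were chosen by symbol, as every transcript probe annotated with one of these names, and were 10 of 30982 gene names on the array. They were covered by 22 of 41000 probes and by 58 of 43376 spots, since 4 of the probes were printed 10 times and 18 once.

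The study profiled Y79, an established human retinoblastoma line grown in suspension, on 2 one-colour Agilent arrays. One array carried RNA of siRNA-untreated cells. The other carried RNA of cells collected 48 h after siRNA against Ep-CAM (TACSTD1), to ask which transcripts differ once Ep-CAM is silenced. By the study's methods the cultures had earlier received azacytidine (AZC), a DNA demethylating agent, and the sample labels name the siRNA alone. The labels call the reference culture untreated, while a figure legend of the study also speaks of a nonsilencing siRNA, and ratios here follow the labels. In the series each condition is 1 culture on 1 array, so no difference has a replicate check and no test was possible. The study's text speaks of biologic replicates in its selection of genes, while the series holds 1 array a condition. How precise a ratio can be is limited by having 1 array a condition.

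The anti-apoptotic members bind and hold back the pro-apoptotic ones. BAX and BAK1, once active, form pores through which cytochrome c leaves the mitochondria, and the BH3-only proteins carry death signals to either side of this balance. BBC3 (PUMA) and PMAIP1 (NOXA) are targets of p53, whose gene is rarely mutated in retinoblastoma. Much of the family is controlled through phosphorylation, cleavage and protein turnover, which transcript levels do not show.

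Levels are processed signals, the brightness of a spot after the software's background subtraction and detrending within the array, in arbitrary units. For the log2 ratio, siRNA-treated over siRNA-untreated, each array was divided by its median transcript spot, 48.8 on the untreated and 50.0 on the treated array. A probe was called higher or lower at a 2-fold difference. Probes below the software's limit for a signal well above background on both arrays have no ratio, and those above it on a single array have a bound, computed from the lowest signal well above background where the dim signal is below that. The technical spread was read from 190 repeated probes with at least 5 spots measured on both arrays, whose log2 ratios had a median SD of 0.14 among spots of the same probe. The files also hold the software's own error for each signal, which is given here carried over to the log2 ratio.

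Ep-CAM itself was dim. Its single probe read 15.6 on the untreated and 11.96 on the treated array and was well above background on neither, so the silenced transcript gave no check of the siRNA label. Of 14 genes listed for Y79 and the photoreceptor lineage, 8 were well above background in untreated and 6 in treated cells, with summed signals of 890.2 and 860.2. The brightest of them was MYCN, at 259 and 327 from a spot in a corner of the array where ratios scattered (0.30), while its second probe, outside that corner, read 138 and 102 (-0.47). Of the 6 measured on both arrays, the other 5 had log2 ratios below 0, and the median of the 6 was -0.19 and below 0 under every scaling. This median was -0.13 in the value table of the series. It was -0.08, with 4 below 0 and 2 above, with a normexp background correction that left out 1 disturbed spot described with BAX. Without the corner 4 remained, all below 0, with a median of -0.19. The photoreceptor transcription factor CRX read 86.8 and 68.7, and OTX2, which acts upstream of it, 70.4 and 52.0 from a spot in the same corner as that of MYCN. The list also counts RB1, the gene whose loss underlies retinoblastoma and which is thus no mark of the line, at 70.1 and 67.8. NRL, RCV1, NEUROD1, PDE6H, RXRG and SYP were dim on both arrays, and ISL1 and THRB on the treated array alone. Markers of other cells were also above background, and their summed signals were 2662 and 2466 for Müller glia and astrocytes (4 of 5 genes, brightest VIM), 1125 and 1153 for retinal pigment epithelium (4 of 5, brightest DCT, RPE65 dim), 1193 and 1252 for epithelium (4 of 4, brightest KRT8), 387 and 319.9 for fibroblasts (4 of 4, brightest DCN) and 1637 and 1642 for leukocytes (4 of 4, brightest CD3E). Y79 is a single established line, so these signals are not read here as shares of other cells. A signal well above background, such as that of CD3E at 815 and 749, does not by itself mark a cell type. The part of these markers in the results that follow was not tested.

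All 10 genes were measured on both arrays by at least 1 probe. Of the 22 probes, 18 were well above background on both arrays, 1 on the untreated array alone and 3 on neither, which left 19 to count. No probe of the 19 was 2-fold higher, beside 1.27% of all 29396 probes tested, and 1 was 2-fold lower, beside 0.925%. At the ratios named in the processing text of the series, 0 were above 1.5 (4.00% of all probes) and 1 was below 0.55 (1.68%). The 18 measured ratios had a median of -0.01 and an SD of 0.36, against -0.03 and 0.33 over all 26976 measured probes, and 9 of them lay below 0 and 9 above. In 13 of the 18 the log2 ratio was within 0.3 of 0, as in 75.3% of all measured probes. As a set, the family had a centre and a spread close to those of the whole array. Under the alternatives the centre alone was compared, and it stayed close to that of all measured probes except with normexp background correction. There 16 of the 18 lay below 0 and their median lay at -0.27 relative to that of all measured probes. With a normexp fit that left out 1 disturbed spot described with BAX, 10 of 17 lay below 0 and this distance was 0.02.

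**Figure D1:**
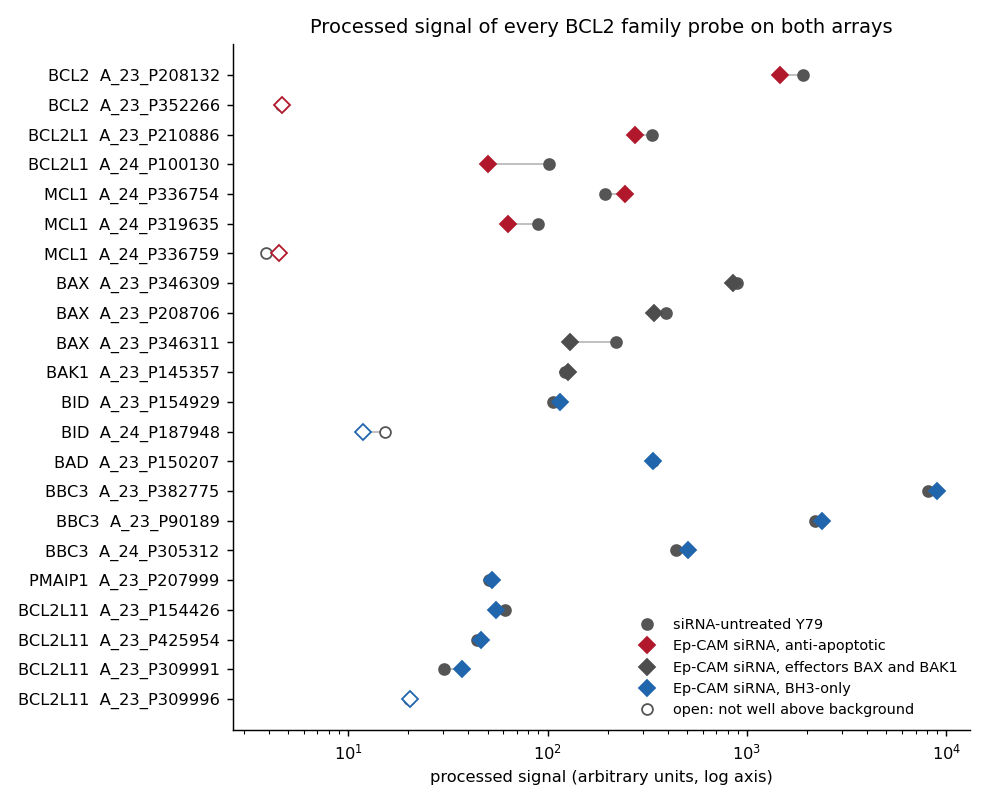
Processed signal (arbitrary units, log axis) of each of the 22 BCL2 family probes, with a grey circle for siRNA-untreated and a coloured diamond for Ep-CAM siRNA-treated Y79 cells, and open symbols where the signal was not well above background. Most pairs of symbols overlap, and the widest gap belongs to the BCL2L1 probe A_24_P100130, at 102 and 50.0.

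Split by role, the anti-apoptotic probes had a median log2 ratio of -0.41 (5 probes, 4 below 0) and the pro-apoptotic probes one of 0.01 (13 probes, 5 below 0), a difference of -0.42. The difference was -0.08 with normexp background correction of all spots and between -0.46 and -0.31 under every other alternative tried. Scaling other than by quantiles shifts all log2 ratios by the same amount. It cannot change this difference, and it says little about whether a sign holds. The probes behind it are few and several of them share a gene, and the difference was not tested. Among the pro-apoptotic probes, the 4 of the effectors had a median of -0.18 and the 9 of the BH3-only genes one of 0.08, with 2 of these below 0 and 7 above. With normexp the tally of the BH3-only probes turned to 7 below and 2 above, with a median of -0.18, and the effectors had a median of -0.70, against -0.09 with quantile normalization. A normexp fit that left out 1 disturbed spot described with BAX gave 3 BH3-only probes below and 6 above, with a median of 0.04. The effectors, with 3 probes left, then had a median of -0.17.

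**Figure D2:**
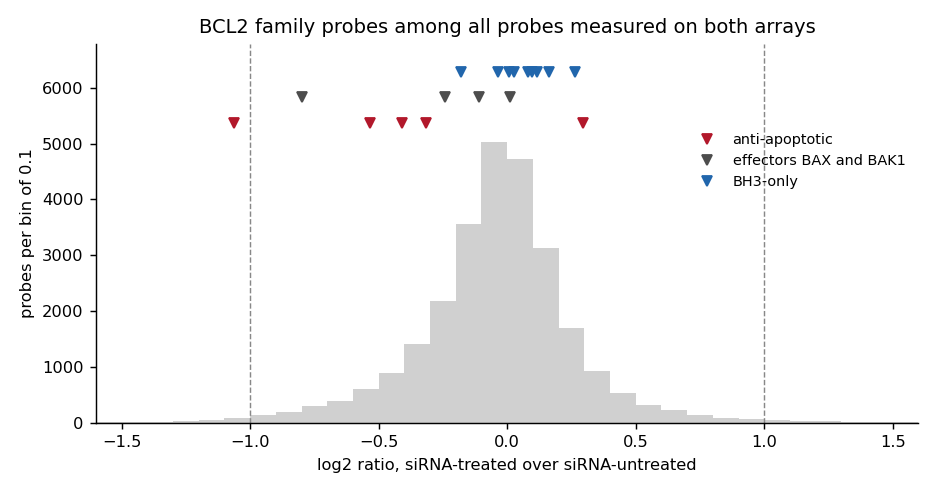
Number of probes per log2 ratio bin of 0.1 (grey bars, all 26976 probes measured on both arrays) with a triangle for each of the 18 BCL2 family probes, in rows by role, and dashed lines at a 2-fold difference. The BH3-only triangles sit over the middle of the bars, while 4 of the 5 anti-apoptotic ones sit left of 0 under every scaling between arrays.

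BCL2L1 encodes BCL-XL, the long anti-apoptotic form, and by splicing also the short pro-apoptotic BCL-XS. It was the single member with a called probe. The probe A_24_P100130 read 102 in siRNA-untreated cells and 50.0 after the siRNA, which is 2.09 and 1.00 times the median of the respective array. Its transcript was 2.09-fold lower after the siRNA, a log2 ratio of -1.06 with a software error of 0.24, and 0.601% of all measured probes were as low. The sequence of the probe is shown because it places the call in the coding sequence, in the part near the start of the protein that the long and the short form share. It lies on the minus strand of chr20:29773576-29773635 (hg17, the build of the array design), and no base is set in capitals.
BCL2L1 A_24_P100130: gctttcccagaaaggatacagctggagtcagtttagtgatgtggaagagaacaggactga
The probe was printed once, at row 112 and column 36. The 129 measured spots around it had a median log2 ratio of -0.01, and 4 of them were past 2-fold. Its raw brightness, before subtraction of the background, was 169.8 and 121, beside a local background of 39 and 41. The processed signals lie below the raw ones by more than this local background. The call thus rests on the software's own subtraction and detrending. The probe was at least 2-fold lower under each of the scalings. The call was lost in the value table of the series, which is raw brightness, at -0.53, and with normexp at -0.54, and the cause of these losses was not tested.

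The other BCL2L1 probe, A_23_P210886 at chr20:29716985-29717044, lies 56531 bases away and was printed at 10 spots. Its mean signal was 334 in untreated cells, with spots from 302 to 365, and 276 in treated cells, with spots from 224 to 309.6. The log2 ratio was -0.32, short of the call, with an SD of 0.13 over the spots. All 10 spots were lower on the treated array, from -0.54 to -0.06, and the one at -0.06 was the only one in the scattered corner. Of the 190 repeated probes, 18.9% had every spot lower and 7.37% every spot higher. The 2 BCL2L1 probes thus pointed the same way under every scaling and differed in size, by 0.75 on the log2 scale. Of the 3236 genes with 2 measured probes, 8.62% had probes at least that far apart, with a median gap of 0.22. The gap was 0.08 with normexp and 0.37 with a second normexp fit, which left out 1 disturbed spot described with BAX. In the value table, which keeps a single spot of a repeated probe, A_23_P210886 instead read 0.22, from the spot in the corner. With the probes averaged, BCL2L1 had a log2 ratio of -0.69, which does not pass the call.

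MCL1 is a short-lived protein that restrains BAK1, and its 2 measured probes lay on opposite sides of 0. The probe A_24_P336754 read 194 in untreated and 243 in treated cells, a log2 ratio of 0.29 that 9.65% of measured probes reached. The probe A_24_P319635 read 89.8 and 63.5, a log2 ratio of -0.53 with a software error of 0.24, which 5.83% were as low as. Neither passed the call, and both kept their sign under every scaling, while the first read -0.22 with normexp and 0.15 with the second normexp fit. The remaining probe, A_24_P336759, was dim on both arrays at 3.88 and 4.48. The 0.83 between the measured probes was reached by 6.67% of genes with 2 measured probes, and was 0.44 in the value table and 0.14 with normexp. The sequence of A_24_P319635 is shown because it lies in the coding exon that the long, anti-apoptotic form keeps and the short form skips, on the minus strand of chr1:147363811-147363870, again with no capitals.
MCL1 A_24_P319635: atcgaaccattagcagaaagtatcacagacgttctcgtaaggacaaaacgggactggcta
The other measured probe lies 3450 bases away on the same strand, at chr1:147360301-147360360. Their spots were both in row 27, at columns 8 and 25, and the spots around each had median log2 ratios of -0.14 and 0.03. Whether the gap follows the form of the transcript was not tested.

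BCL2, the founding member, first found at the breakpoint of a lymphoma translocation, was measured by 1 of its 2 probes. The probe A_23_P208132 read 1903 in untreated and 1469.6 in treated cells. The log2 ratio of -0.41 (software error 0.20) did not pass the call, and 9.80% of all measured probes were as low. It was -0.18 with quantile normalization, -0.99 with normexp and -0.39 with the second normexp fit, and it was below 0 under every scaling. The array design gives coordinates for 36 of its 60 bases, chr18:59136115-59136150 on the minus strand. The other BCL2 probe, A_23_P352266, lies 194352 bases away and was dim at all 10 of its spots on both arrays, with signals from 3.32 to 7.65 and from 3.88 to 6.57. BCL2 therefore rests on 1 spot.

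**Figure D3:**
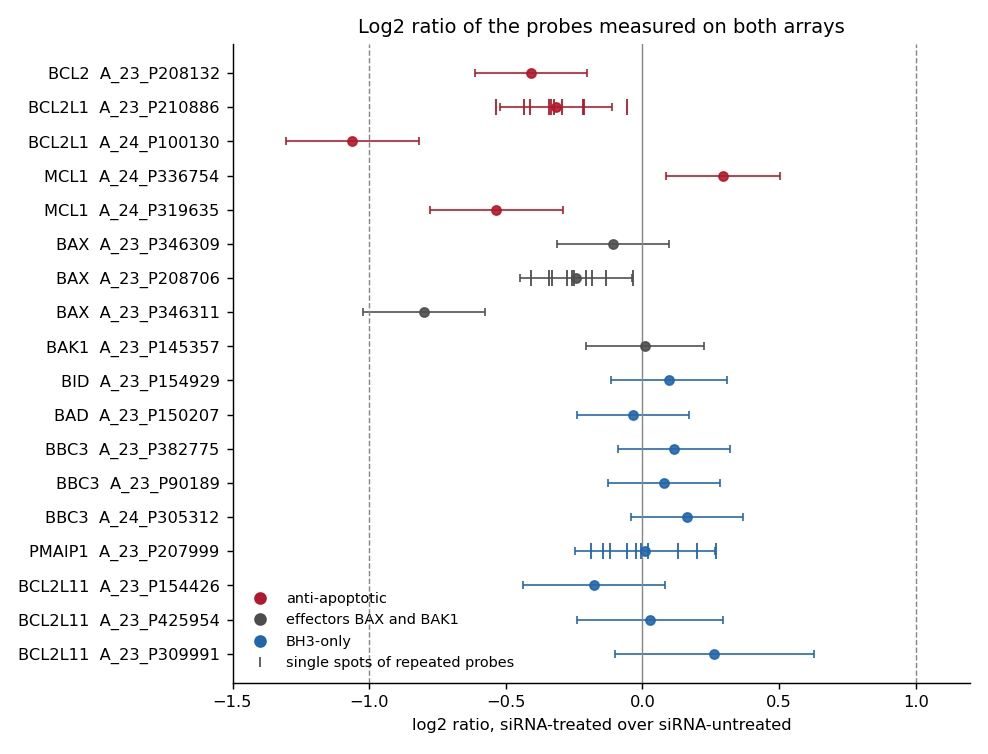
Log2 ratio (siRNA-treated over siRNA-untreated) of the 18 BCL2 family probes measured on both arrays, with bars for the software's error, short ticks for the single spots of repeated probes and dashed lines at a 2-fold difference. BCL2L1 A_24_P100130 alone lies past a line, and the BAX probe A_23_P346309 and BAD, drawn just left of 0, lie just right of it after quantile normalization.

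BAX moves from the cytosol to the mitochondria when it is activated, and it was read by 3 probes, none of which passed the call as reported. The repeated probe A_23_P208706 averaged 394 in untreated cells (10 spots, 318 to 424) and 342 in treated cells (274 to 396). Its log2 ratio was -0.24, with an SD of 0.11 over the spots, and all 10 spots were lower in treated cells, from -0.41 to -0.03. Among the 190 repeated probes, 33 had a mean as low, this one included. The probe A_23_P346309 read 893 and 848, a log2 ratio of -0.11 that turned to 0.00, just above 0, with quantile normalization.

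The lowest BAX value came from a disturbed spot. The probe A_23_P346311 read 221 in untreated and 129.98 in treated cells, a log2 ratio of -0.80 with a software error of 0.22, and 2.01% of all measured probes were as low. On the treated array the local background beside this spot was 5588.5, the highest of that array, where the median was 39 and no other BCL2 family spot exceeded 46. The raw brightness of the spot was 196, which made it the only transcript spot of the treated array dimmer than its surroundings. Its pixels were uneven too, with an SD of 58.4% of their mean against 14.4% on the untreated array, and 0.0949% of measured spots on the treated array were as uneven. The part of this disturbance in the ratio was not tested. In the value table the ratio was -0.35, and with normexp it was -3.12, which passed the call. Without the spot the effectors had a median log2 ratio of -0.11, and without it or any other spot of outlying local background the anti-apoptotic and pro-apoptotic medians differed by -0.44. The probe is shown with its run of 8 G in capitals, the stretch of the BAX coding sequence that gains or loses a base in tumours with faulty mismatch repair, on the plus strand of chr19:54150770-54150829.
BAX A_23_P346311: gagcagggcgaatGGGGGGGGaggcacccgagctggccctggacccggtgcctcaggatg
A run of 8 G stood in 1 of the 41000 probes, which was this one.

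BAK1, the effector that sits in the mitochondrial membrane at rest, read 123 in untreated and 127 in treated cells. Its log2 ratio of 0.01 lay well within the technical SD and was above 0 under every scaling. It was -0.03 in the value table, -0.002 with the second normexp fit and -0.24 with normexp, so its sign is not settled. The part of the effectors that can be read from undisturbed spots thus spanned log2 ratios from -0.24 to 0.01 as reported. With normexp it spanned -0.77 to -0.24, with the BAX probes A_23_P346309 at -0.77 and A_23_P208706 at -0.62. With the second normexp fit these BAX probes read -0.20 and -0.17.

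Among the BH3-only genes no probe passed the call. BBC3, which binds all anti-apoptotic members, was read by 3 probes each printed once. The probe A_23_P382775 read 8074 and 8957, A_23_P90189 read 2185 and 2365, and A_24_P305312 read 439 and 504 in untreated and treated cells. With normexp the log2 ratios of all 3 probes were below 0, and with the second normexp fit all were above 0. As reported, the log2 ratios were 0.11, 0.08 and 0.16, above 0 under every scaling. They lay within 0.08 of one another, a span that 97.6% of the 595 genes with 3 measured probes reached or exceeded, although 1 of the 3 spots lay in the scattered corner and the probes ranged from 55% to 85% in GC content. The span was wider with quantile normalization, at 0.21 (log2 ratios of 0.44, 0.33 and 0.24), and relative to the spots around each probe, at 0.29. PMAIP1, which mainly neutralises MCL1, was read at 10 spots that averaged 51.0 in untreated cells (39.7 to 59.1) and 52.8 in treated cells (40.2 to 71.3). Its log2 ratio was 0.01, with an SD of 0.15 over the spots, 6 of which were lower and 4 higher. The p53 targets BBC3 and PMAIP1 thus stayed short of the call.

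BCL2L11 encodes BIM, which FOXO transcription factors induce when growth factors are withdrawn, and 3 of its 4 probes were measured on both arrays. The probe A_23_P154426 read 60.9 and 55.2, a log2 ratio of -0.18. The probes A_23_P425954 and A_23_P309991 overlap by 46 bases and are shown for that reason, with the shared bases in capitals. They lie in the coding sequence on the plus strand, at chr2:111637963-111638022 and chr2:111637949-111638008.
BCL2L11 A_23_P425954: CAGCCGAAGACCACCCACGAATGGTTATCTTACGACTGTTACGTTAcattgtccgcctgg
BCL2L11 A_23_P309991: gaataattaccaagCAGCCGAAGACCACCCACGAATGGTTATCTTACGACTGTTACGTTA
Although they can pair with the same stretch of the transcript, the first read 44.2 and 46.1, a log2 ratio of 0.03, and the second 30.2 and 37.1, a ratio of 0.26 with a software error of 0.36. They differed by 0.24, which is less than that error. Their spots lie at row 413 and column 4 and at row 511 and column 62, the latter in the scattered corner. The signs of all 3 probes were kept under every scaling. The remaining probe, A_23_P309996, read 20.2 and 20.4 and was well above background on the untreated array alone.

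BID, which caspases cut after death receptor signals, read 106 in untreated and 116 in treated cells at A_23_P154929, a log2 ratio of 0.10 that was above 0 under every scaling. Its other probe, A_24_P187948, was dim on both arrays at 15.3 and 11.9. BAD, held inactive by phosphorylation in the presence of growth factors, read 337.2 and 337.1. Its log2 ratio of -0.04 turned to 0.00, just above 0, with quantile normalization. Both ratios were smaller than the technical SD of 0.14, except with normexp, where BID read -0.18 and BAD -0.47.

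Few spots of the family lay in the corner where ratios scattered. That corner, at the high row and column numbers, had 7.50% of 4986 probes past 2-fold and an SD of the log2 ratio of 0.51, against 1.10% of 24206 and 0.29 elsewhere on the array. Of the 58 spots of the family 6 lay there, and the called BCL2L1 spot did not. Without the corner the family had 1 probe past 2-fold, a median log2 ratio of -0.07 and a difference between the roles of -0.42.

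**Figure D4:**
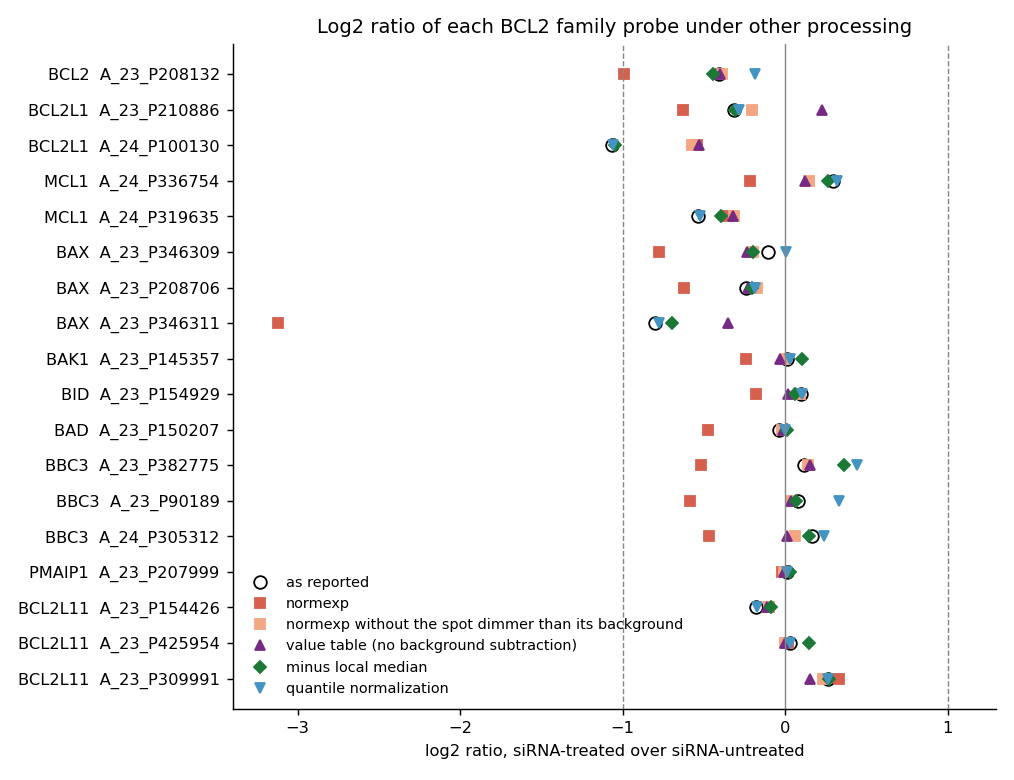
Log2 ratio (siRNA-treated over siRNA-untreated) of the 18 BCL2 family probes as reported (open circles) and with 2 normexp background corrections, the value table of the series, subtraction of the local median and quantile normalization. The BCL2L1 probe A_24_P100130 is past the dashed 2-fold line as reported, relative to the local median and after quantile normalization, and between -0.57 and -0.53 with the others, and the BAX probe A_23_P346311 reaches -3.12 with normexp.

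Around the family, 6 lists held 120 genes with a probe, of which 102 were measured on both arrays by their brightest probe. With normexp, which moved the median of all measured probes from -0.03 to -0.20, most lists moved down too, and their values under it are given with each. With the second normexp fit, without the disturbed spot, the median of all measured probes was -0.02. The medians were then 0.04 for the other BCL2 family genes and -0.02 for the transcription factors. For the p53 target genes and the reference transcripts they were 0.01 and -0.01. The other BCL2 family genes had 13 of 14 measured and a median of 0.01, with 6 below 0 and 7 above. None of their 18 probes tested was past 2-fold, beside 1.27% higher and 0.925% lower among all probes. With normexp the median was -0.22, with 11 below and 2 above. The lowest was BIK, a BH3-only gene, at 72.2 and 51.5 in untreated and treated cells (-0.52). The highest was BNIP3L, which helps to clear mitochondria, at 31.6 and 56.3 (0.80), from a spot in the scattered corner. Its other probe, outside the corner, went the other way, at 20.8 in untreated cells and dim at 15.2 in treated cells. BCL2L12, the brightest, read 666 and 593 (-0.20).

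Of the partners and regulators of BCL2 family proteins 33 of 37 genes were measured. Their median log2 ratio was -0.25, with 25 below 0 and 8 above, and -0.06 with quantile normalization, with 21 below and 12 above. Of all measured probes 55.2% lay below 0. That share takes in probes of any brightness, while the list takes each gene's brightest probe. The part of brightness in the difference was not tested. Without the scattered corner 27 genes were left, and their median was -0.15. Of its 59 probes tested 1 was 2-fold higher and 4, of 2 genes, were 2-fold lower, beside the 1.27% and 0.925% of all probes. PIM2, a survival kinase that phosphorylates BAD, rose from 829.9 to 1802, a log2 ratio of 1.08. YWHAZ, a 14-3-3 protein that holds phosphorylated BAD in the cytosol, fell at 3 probes, the brightest of which read 485 and 241. The 3 log2 ratios were -1.04, -1.03 and -1.09, and a further probe at 48.6 and 51.3 read 0.05. With quantile normalization the brightest read -0.99 and without scaling the next did, both just short of the call, and relative to the spots around it the last read -0.95. On the treated array the local background of the brightest, 45, was marked as outlying. VDAC2, the outer membrane channel that BAK1 binds, fell from 87.3 to 40.9 at a probe in the corner (-1.13), and read -0.84 relative to the spots around it, short of the call, while its brighter probe outside the corner read -0.44. DYNLL1, a dynein light chain that tethers BIM, had the brightest probe of this list, at 30789 and 16378. Its log2 ratio of -0.95 did not pass, nor did that of its second probe, -0.99. In the value table none of the 5 called probes was past 2-fold, with PIM2 at 0.97, VDAC2 at -0.45 and YWHAZ at -0.79, -0.82 and -0.72. With normexp the list had 0 probes called higher and 11 lower, beside 45 higher and 1056 lower among all probes. Its median was then -0.54, beside -0.20 over all measured probes, with PIM2 at 0.38, VDAC2 at -0.42 and YWHAZ at -1.19, -1.11 and -0.93. With the second normexp fit it had 1 higher and 0 lower, beside 128 higher and 76 lower among all probes. Its median was then -0.18, with PIM2 at 1.00, VDAC2 at -0.52 and YWHAZ at -0.79, -0.86 and -0.72.

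Among transcription factors that act on BCL2 family genes 23 of 25 were measured, with a median of -0.01 (14 below 0 and 9 above) that was above 0 under each of the other scalings, and -0.44 with normexp (20 below and 3 above). JUN, which induces BCL2L11 in neurons, fell from 8048 to 2613 over 10 spots, 2 of them in the corner, and was both the brightest and the lowest at -1.65. CREB1, an activator of BCL2, fell from 86.7 to 37.4 (-1.25), at a single spot whose local background on the treated array, 34, was marked as outlying. The probe A_24_P923962 of STAT3, an activator of MCL1 and BCL2L1, was at least 2.09-fold higher, dim in untreated cells and 32.0 in treated cells, while its other 3 probes read -0.06, 0.07 and 0.30. DDIT3, a stress factor that raises BCL2L11, was the highest of those measured on both arrays, at 344 and 536 (0.60). Of these 3 called genes JUN alone was past 2-fold in the value table and with either normexp fit, where CREB1 read -0.58, -0.45 and -0.54 and the STAT3 probe 0.49, 0.46 and 0.35. Relative to the spots around it the STAT3 probe read 0.79, short of the call. Of the 43 probes tested in this list 1 was called higher and 2 lower, beside the 1.27% and 0.925% of all probes.

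Of the p53 target genes 17 of 23 were measured, with a median of 0.01, 8 below 0 and 9 above, and with normexp one of -0.29, 16 below and 1 above. GADD45A, a stress gene that p53 induces, was the only one called, 1 lower of 22 probes tested beside the 0.925% of all probes. It fell from 3421 to 1679 (-1.06), at a spot in the corner, and read -0.79 with quantile normalization and -0.74 relative to the spots around it, neither past the call. PLK3 was the highest, at 746 and 956 (0.32).

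The factors released from mitochondria and the inhibitors of apoptosis had 11 of 13 genes measured and a median of -0.21, with 9 below 0 and 2 above, below 0 under every scaling, -0.15 with normexp and nearer to 0 in the value table (-0.05) and with the second normexp fit (-0.07). A CYCS probe in the corner, for cytochrome c, was at least 2.01-fold higher, dim at 11.4 in untreated cells and 30.8 in treated cells, the single call among 15 probes tested, beside the 1.27% of all probes called higher. The call was lost relative to the spots around it (0.73), in the value table (0.26) and with both normexp fits (0.43 and 0.27). Of the other CYCS probes, both outside the corner, one was dim at 12.7 in untreated cells and read 18.1 in treated cells, at least 1.18-fold higher, and the one measured on both arrays read 0.02. The lowest was BIRC4 (XIAP), which blocks caspases directly, at 116 and 76.5 (-0.63) from a spot in the corner. The highest of the genes measured on both arrays by their brightest probe was BIRC6, at 20.7 and 24.1 (0.19). ENDOG, a mitochondrial nuclease and the brightest of those measured, read 549 and 452 (-0.32).

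The reference transcripts had 5 of 8 genes measured by the brightest probe and a median of -0.03. HPRT1 (6.96 and 7.59) and GUSB (3.87 and 4.38), each printed at 10 spots, were dim on both arrays. GAPDH, with HPRT an endogenous control of the study's RT-PCR, read 250 and 251. None of their 12 probes tested was past 2-fold, beside 1.27% higher and 0.925% lower among all probes. The median turned to 0.00, just above 0, with quantile normalization and to 0.01 without scaling. With normexp it was -0.41, with 2 probes 2-fold lower, beside 1056 among all probes. The lowest was TBP, at 54.7 and 44.8 over 10 spots (-0.34), and the highest PPIA, at 21.1 and 33.5 (0.63) and 0.08 at its other probe. The brightest could not be told, since a probe of RPLP0 and one of ACTB were saturated on both arrays. The 10-spot probe of RPLP0 read -0.01. The log2 ratios of these transcripts thus spanned -0.34 to 0.63.

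**Figure D5:**
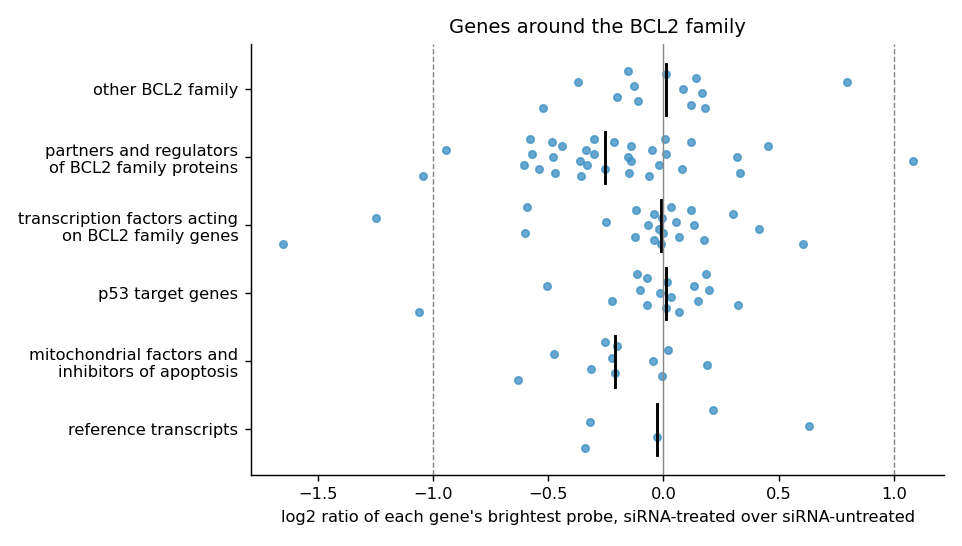
Log2 ratio (siRNA-treated over siRNA-untreated) of each gene's brightest probe in the 6 lists around the BCL2 family, 1 point per gene, with a black bar at each median and dashed lines at a 2-fold difference. The bar of the partners and regulators stands at -0.25 and at -0.06 after quantile normalization, and the points past the lines are PIM2, YWHAZ, JUN, CREB1 and GADD45A, of which YWHAZ and GADD45A fall short after quantile normalization.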

How the data were processed

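Both arrays were scanned and converted by the authors with Agilent Feature Extraction, version 9.5.3.1 per the file headers, and the deposited values are spot intensities: a processed intensity that is background-subtracted and detrended within the array without scaling between arrays, raw brightness of the spot and its local background, and flags. The deposited value table of the series holds intensity values equal to the raw median brightness of the spot for all 40736 probes printed once, and to that of the last spot in the file for all 264 repeated probes (medians 120 and 122.5).

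Without control and outlier spots, signals were divided by the array's 50th percentile, raised to 0.01 where lower, taken to log2 and averaged over the spots of a probe. Local values are medians of the measured spots within 10 rows and 5 columns. The software's error is the modelled error of each processed signal, carried over to the log2 ratio. Every probe of the 10 genes is described. Of the wider lists, the genes named are those with a probe past 2-fold, the brightest, the highest and the lowest, read from the probe with the highest mean signal. Second probes of these genes, and the reference transcripts GAPDH, HPRT1 and GUSB, were named after their values were seen. The members and lists were chosen with earlier results of these data known. Probe positions follow the hg17 array design. What each gene does, and whether a probe lies in coding sequence, is background knowledge.

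Alternatives were scaling to the 75th percentile, to the median of the probes measured on both arrays, by quantiles or not at all, normexp with an offset of 50 (limma 3.58.1, R 4.3.3), the value table, other filters on dim probes, subtraction of the local median, and the mean or brightest probe of a gene. Python 3.11.15 with pandas 2.3.3, numpy 2.4.6 and matplotlib 3.10.9 was used.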

Additional observations from a re-analysis of the deposited data

How the results depend on the processing

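The number of BCL2 family probes past 2-fold was 1 under every scaling, filter on dim probes and position setting. It was 0 with the value table, with the mean over the probes of a gene and with the brightest probe of each gene, and 0 with normexp fitted without the disturbed BAX spot, an alternative chosen after seeing the data. Averaging and taking the brightest probe by construction join the called BCL2L1 probe to the other or drop it, and the cause of the other losses was not tested. For that probe the log2 ratio was -0.53, -0.54 and -0.57 with the value table and the 2 normexp fits, and otherwise between -1.06 and -1.03. With normexp on all spots the median log2 ratio of the family was -0.47 and the anti-apoptotic minus pro-apoptotic difference -0.077, while the median of all measured probes moved to -0.20 and the 1 probe past 2-fold was BAX A_23_P346311 at -3.12. Without that 1 spot in the fit, the values were -0.01, -0.31 and -0.02, and this BAX probe has no value. The median of the family was otherwise between -0.07 and 0.02. Of 176 single probe values under alternatives 149 moved by less than the technical SD of 0.14 and 27 by more, 14 of these with normexp, and 0 called values changed sign. Scaling other than by quantiles shifts every probe by the same small amount. Leaving out spots does not alter a probe that has none of them. Much of the count of 149 was thus fixed in advance and is no measure of robustness. Of the 18 probes 8 kept their sign under every alternative and 16 under every scaling. Among all probes, 57.8% of the calls were higher (372 against 272 lower). The split was 4.09% with normexp (45 against 1056), 39.3% without the scattered corner (106 against 164), also chosen after seeing the data, 52.7% (89 against 80) with the value table, 62.7% (128 against 76) with the second normexp fit, 49.8% (214 against 216) with probes well above background on both arrays and 50.7% (1048 against 1018) with no filter. Leaving out spots of outlying local background was the last alternative added after the data were seen. No difference can be read for the 28.3% of probes that were dim on both arrays.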
